A study of Mus musculus with 8 samples.

Results

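The CTX-only gained regions are stretches of mouse chromatin that carried a peak of H3K27ac (histone H3 acetylated on lysine 27) in both libraries of KCl-depolarised CTX cultures. By the rule that chose them they had a peak in neither library of unstimulated CTX cultures and in none of the 4 libraries of MGE cultures. Peaks of all 8 lists that overlapped by at least 1 bp were merged on chromosomes 1 to 19 and X, which gave 113604 merged regions, and 3140 of these were members. The members were chosen by the presence and absence of peaks in every list, so these calls are given as a description, with no test. All cultures were primary neurons of the strain labelled C57/BL6. The groups were CTX cultures with KCl, CTX cultures left unstimulated, MGE cultures with KCl and MGE cultures left unstimulated, with 2 libraries each. All 4 groups, the unstimulated ones included, spent the night of day 6 in culture in 1 µM tetrodotoxin (TTX), which blocks sodium channels, and 100 µM D-AP5, which blocks NMDA receptors, to silence activity. On day 7 the KCl groups received 55 mM KCl for 2 h. The labels disagree on the material: titles give embryonic day 14 for CTX, the source field gives embryonic day 16 for all libraries, and MGE libraries are also listed as cortical neurons under cell type. The titles call the replicates biological without saying what was kept separate, so the p-values rest on a spread that may be technical and on nothing wider than these samples.

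H3K27ac is laid down by the acetyltransferases CBP and p300 and marks active promoters and enhancers. In neurons, depolarisation opens calcium channels, and calcium signalling activates factors such as CREB, SRF and MEF2. These induce immediate early genes, among them the Fos and Egr families, and the products of those genes act with other factors at enhancers of later genes such as Bdnf, which encodes a neurotrophin. Enhancers are more often particular to a cell type than promoters are. The cortex holds mostly glutamatergic projection neurons, and the medial ganglionic eminence is the embryonic source of many GABAergic interneurons. H3K27ac in a bulk culture cannot tell fewer cells with the mark from less of the mark in each cell.

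Of the members, 88 (2.80%) touched a promoter window, which was defined as 250 bp before to 50 bp after an annotated gene start. They touched 100 of the 32619 windows. Regions gained in both cultures touched a window in 8.62% of cases and regions gained in MGE alone in 0.727%. Of all merged regions 9.29% touched one, and of regions called in both CTX unstimulated lists and in no other list 1.28%. Of all regions called in both CTX KCl lists, members or not, 24.8% touched one. Those regions had a median length of 1022 bp, against 509 bp for members. The promoters below were chosen after the values were seen, as the highest-ranked window and as examples that hold a searched motif. Sequences are RefSeq's on GRCm38.p6, in the direction of the gene, with matches to the searched motifs in capitals.
Sgsh: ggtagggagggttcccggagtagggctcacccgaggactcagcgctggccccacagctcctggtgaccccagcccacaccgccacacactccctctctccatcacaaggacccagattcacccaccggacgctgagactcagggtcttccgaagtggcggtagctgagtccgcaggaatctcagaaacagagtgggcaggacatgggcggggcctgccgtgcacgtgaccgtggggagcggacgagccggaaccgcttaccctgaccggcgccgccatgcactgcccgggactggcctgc
Ltbp1: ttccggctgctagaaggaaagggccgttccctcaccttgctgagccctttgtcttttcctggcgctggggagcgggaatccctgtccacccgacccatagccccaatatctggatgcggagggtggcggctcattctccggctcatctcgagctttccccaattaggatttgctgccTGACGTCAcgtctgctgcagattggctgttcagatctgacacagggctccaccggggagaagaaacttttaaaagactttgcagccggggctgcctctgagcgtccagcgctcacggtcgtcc
Rgs13: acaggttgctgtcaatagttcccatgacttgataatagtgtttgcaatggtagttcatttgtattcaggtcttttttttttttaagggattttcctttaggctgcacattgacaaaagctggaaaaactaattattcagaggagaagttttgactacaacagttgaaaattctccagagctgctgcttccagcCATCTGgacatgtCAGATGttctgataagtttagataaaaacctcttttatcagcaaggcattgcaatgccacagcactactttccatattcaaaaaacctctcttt
Egflam: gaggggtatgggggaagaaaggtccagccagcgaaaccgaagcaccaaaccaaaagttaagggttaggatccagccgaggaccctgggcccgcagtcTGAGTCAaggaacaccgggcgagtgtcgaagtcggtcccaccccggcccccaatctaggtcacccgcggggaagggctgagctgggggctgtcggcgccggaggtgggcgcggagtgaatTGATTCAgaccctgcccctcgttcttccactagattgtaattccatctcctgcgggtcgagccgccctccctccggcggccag
Htr2b: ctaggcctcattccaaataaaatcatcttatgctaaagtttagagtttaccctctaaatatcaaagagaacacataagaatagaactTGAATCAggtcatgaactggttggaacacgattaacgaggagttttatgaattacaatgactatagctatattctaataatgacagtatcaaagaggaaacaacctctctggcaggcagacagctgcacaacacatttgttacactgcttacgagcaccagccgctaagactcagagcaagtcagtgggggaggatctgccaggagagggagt
Neurod1: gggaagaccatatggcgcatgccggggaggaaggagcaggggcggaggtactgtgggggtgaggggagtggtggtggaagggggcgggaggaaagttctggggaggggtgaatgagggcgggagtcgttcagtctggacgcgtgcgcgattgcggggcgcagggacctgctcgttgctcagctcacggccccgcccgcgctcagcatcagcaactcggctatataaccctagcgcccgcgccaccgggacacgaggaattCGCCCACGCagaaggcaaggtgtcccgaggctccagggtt

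The Sgsh window (chr11:119355461-119355760, minus strand) lay whole within a member, and it held none of the 5 motifs. Sgsh encodes a lysosomal enzyme that breaks down heparan sulfate, and its member had a fold enrichment of 4.82 and 4.31 in CTX KCl replicates 1 and 2. The Ltbp1 window (chr17:75005279-75005578, plus strand), at a gene for a protein that binds latent TGF-beta, holds the CRE, the palindrome TGACGTCA bound by CREB. This window was only in part covered by its member, which ended at chr17:75005410, before the CRE. The fold enrichment of that member was 3.78 and 4.47. The Rgs13 window (chr1:144177323-144177622, minus strand) holds 2 matches to CAGATG, an E-box bound by NeuroD factors, 1 of them on the other strand. Rgs13 encodes a regulator of G protein signalling. The Egflam window (chr15:7398341-7398640, minus strand) holds 2 matches to TGANTCA, the site of AP-1, the dimer of Fos and Jun proteins. The Htr2b window (chr1:86111931-86112230, minus strand), at a serotonin receptor gene, holds 1 such match. The Neurod1 window (chr2:79456587-79456886, minus strand) holds a match on the other strand to GCGTGGGCG, the site of EGR proteins. Neurod1, a neuronal basic helix-loop-helix factor, had a member of low rank, with a fold enrichment of 2.38 and 2.48.

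Over the 100 touched windows, TGANTCA stood in 6%, against 7.85% of all promoter windows and 4.17% of the 12239 windows touched by any region called in both CTX KCl lists. The CRE stood in 2% of the touched windows, against 1.80% and 3.57%. CAGATG stood in 31.0%, against 17.1% and 10.7%. GCGTGGGCG stood in 1%, against 0.616% and 1.2%. The CArG box, the site of SRF, stood in 1%, against 1.64% and 1.10%. Both strands were searched, and no motif is contained in another. Matches were counted over the whole window, also where a member covered only part of it. The mean GC content was 54.4% in touched windows, 53.9% in all windows and 61.9% in windows touched by regions of both CTX KCl lists, so the windows compared also differ in base composition. Some of the 100 windows are overlapping alternative starts of one gene. Among them are several of the noncoding RNA gene Gm36251, all touched by the same member. Each of these holds 2 matches to CAGATG, so the 31.0% counts that promoter more than once. A match is a string of letters and was not tested as a binding site.

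The members were 2.76% of all merged regions, 3.60% of the 87261 with a peak in any CTX list and 8.47% of the 37064 with a peak in both CTX KCl lists. For comparison, 638 regions (0.562%) were gained in both cultures, and 2337 (2.06%) were gained in MGE alone. The lists differ in size, and depth behind them is unknown because the lists hold no read counts. The CTX KCl lists held 45059 and 66827 peaks (replicates 1 and 2), and the CTX unstimulated lists held 41537 and 64878. The MGE KCl lists held 36035 and 49635 peaks, and the MGE unstimulated lists held 38411 and 36241. Replicate 2 was the longer list in both CTX groups and in MGE KCl. Absence from a shorter list is therefore weaker evidence of no peak than absence from a longer one, and its part in the membership was not tested.

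Much of the membership turned on single lists. Another 3012 regions would have been members but for a peak in CTX unstimulated replicate 2, whereas 286 were kept out by CTX unstimulated replicate 1 alone. MGE KCl replicates 1 and 2 each kept out 113 and 639 regions on their own, and MGE unstimulated replicates 1 and 2 kept out 40 and 38. A further 2112 regions had a peak in CTX KCl replicate 1 and in no other list, and 11404 in CTX KCl replicate 2 and in no other. Members were set beside the regions that 1 further list kept out. Median fold enrichment in CTX KCl replicates 1 and 2 was 3.06 and 3.38 for members, and 3.07 and 3.45 for the 3012 regions kept out by CTX unstimulated replicate 2. Median length was 509 bp for members and 667.5 bp for those regions, whose extent includes the further peak. The rule was met by 6330 regions when CTX unstimulated replicate 2 was left out, by 14716 without CTX KCl replicate 1 and by 5579 without CTX KCl replicate 2. When each list was reduced to its 36033 best peaks by −log10 q, 1989 regions met the rule, and 955 of the members overlapped one of them.

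Peaks at marker genes differed between the cultures. Called length within 10 kb of the 7 cortical projection neuron markers was 293 to 545 bp per Mb called in the 4 CTX lists, and 41.5 to 134 in the 4 MGE lists, where Neurod6 and Emx1 were at 0. For the 7 markers of MGE and GABAergic cells it was 316 to 345 in CTX lists and 546 to 728 in MGE lists. Lhx6 and Nkx2-1, which mark MGE-derived cells, were at 0 in all CTX lists, whereas GABAergic genes were not. The CTX lists also held more called length at astrocyte and oligodendrocyte lineage markers, but less at microglia markers. The 4 astrocyte markers had 334 to 373 bp per Mb in CTX lists and 107 to 198 in MGE lists, and the 4 oligodendrocyte lineage markers had 268 to 347 and 17.0 to 89.4. Within CTX, astrocyte markers had 368 and 373 bp per Mb in KCl lists and 334 and 362 in unstimulated lists. Oligodendrocyte lineage markers had 292 and 347 in CTX KCl lists, against 268 and 328 in CTX unstimulated lists. The 4 microglia markers had 58.7 to 78.3 in CTX lists and 119 to 175 in MGE lists, with Cx3cr1 at 0 in all 8. The 4 endothelial markers had 55.0 to 70.2 in CTX KCl lists, 114 to 169 in CTX unstimulated lists and 21.0 to 87.9 in MGE lists, with Cldn5 and Kdr at 0 in all 8. The part of glia in the absence of members from the MGE lists was not tested.

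The members were short and of modest enrichment. Their median length was 509 bp (25th percentile 407, 75th percentile 645, range 248 to 1825 bp), and they covered 1.72 Mb in all. Regions gained in both cultures had a median of 724.5 bp, regions gained in MGE alone 527 bp, regions called in all 8 lists 1446 bp and all merged regions 544 bp. In CTX KCl replicate 1 the member peaks had a median deposited fold enrichment of 3.06 (range 1.42 to 5.15), and in replicate 2 of 3.38 (range 1.42 to 7.29). The median deposited −log10 q was 2.60 (range 1.33 to 8.89) in replicate 1 and 3.90 (range 1.37 to 21.5) in replicate 2. These are the authors' values for each peak, and they are used here to describe and rank peaks within a list.

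Within each list, peaks were ranked by fold enrichment as a percentile, with 100 as the highest. Member peaks had a median rank of 38.8 in CTX KCl replicate 1 and 45.7 in replicate 2. Peaks of regions gained in both cultures had medians of 41.0 and 51.8, and peaks of regions called in all 8 lists had 79.3 and 83.5. The lower of a member's 2 ranks was at or above 50 for 720 members (22.9%), at or above 75 for 125 (3.98%) and under 25 for 1315 (41.9%). The −log10 q reached 5 in both lists for 87 members (2.77%) and lay under 2 in at least 1 list for 791 (25.2%).

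**Figure D1:**
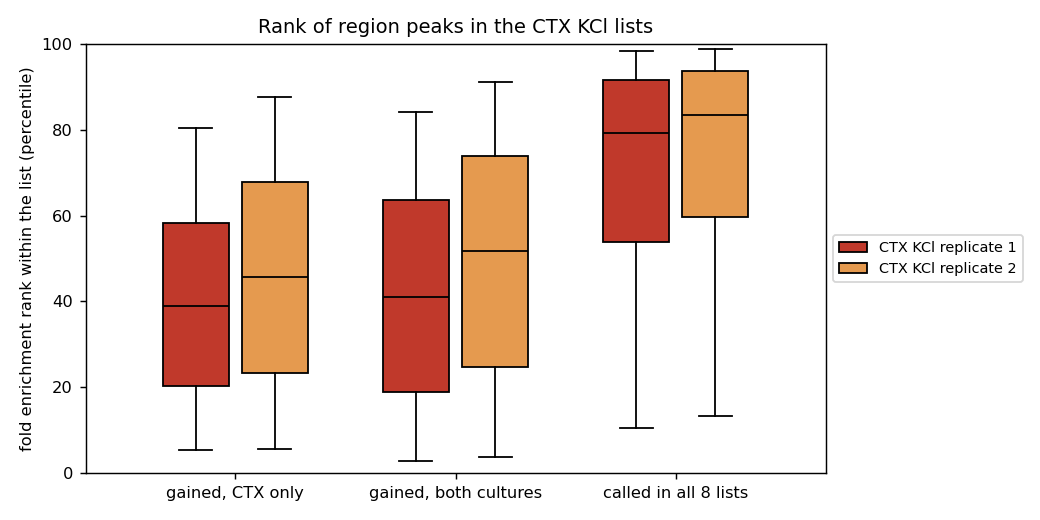
Rank of fold enrichment (percentile within the list, y axis) of peaks in CTX KCl replicates 1 and 2, for CTX-only gained regions, regions gained in both cultures and regions called in all 8 lists. Boxes span the 25th to the 75th percentile with the median as a line, and whiskers run from the 5th to the 95th percentile. CTX-only gained regions have medians of 38.8 and 45.7, against 79.3 and 83.5 for regions called in all 8 lists.

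The pair of peaks in a member matched closely in place. In 3112 members (99.1%) each CTX KCl list had a single peak. The peaks shared a median of 287.5 bp, which was 97.4% of the shorter peak at the median, and 31 members had fewer than 50 bp shared, with a lowest value of 2 bp. The peak was wider in replicate 2 in 2088 members (66.5%), and median called length was 349 bp in replicate 1 and 431 bp in replicate 2.

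Most members lay away from gene ends. Within 2 kb of either end of a gene lay 226 members (7.20%, 95% Wilson interval 6.34 to 8.15%, which treats regions as independent), elsewhere in a gene 1482 (47.2%), and outside genes 1432 (45.6%). The share was 24.5% of the 767 regions that met the rule with a −log10 q of at least 5 in all lists, which overlapped 87 of the members, and 13.7% of the 715 that met it with equal called bases per list. Gene spans are those of RefSeq on GRCm38.p6, and exons were not separated from introns. For regions gained in both cultures the same shares were 19.1%, 48.1% and 32.8%, and for regions gained in MGE alone they were 4.62%, 48.7% and 46.6%. Regions called in all 8 lists lay within 2 kb of a gene end in 62.3% of cases, and all merged regions in 14.7%. Members thus stood nearer to the MGE-only regions than to those gained in both cultures, and no test was made of a difference between sets that the rule itself separates. As a share of merged regions on the same chromosome, members made up from 2.17% on chromosome 11 to 3.31% on chromosome 19, with 2.58% on X.

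**Figure D2:**
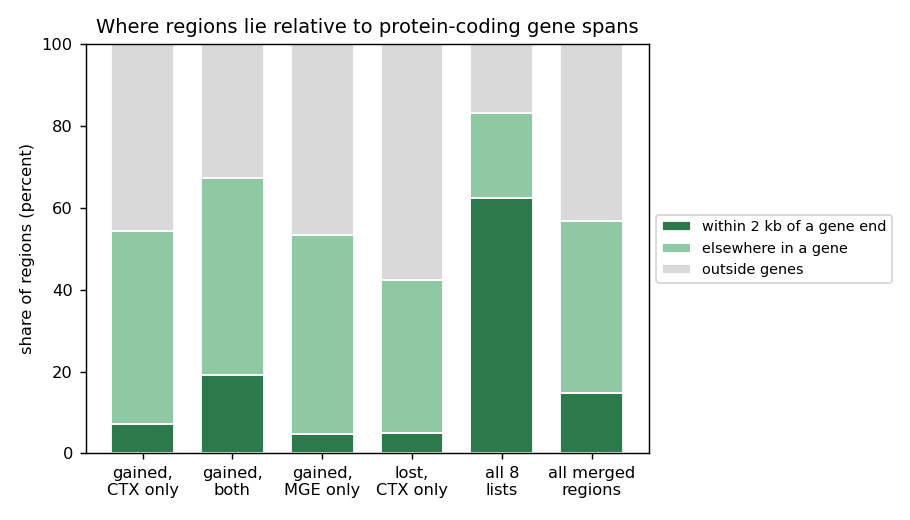
Percent of regions (y axis) within 2 kb of a gene end, elsewhere in a gene and outside genes, for each class of region. CTX-only gained regions lie within 2 kb of a gene end in 7.20% of cases, regions gained in both cultures in 19.1% and regions called in all 8 lists in 62.3%.

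Absence from the other lists was often absence by a short distance. The nearest peak of either CTX unstimulated list lay a median of 8.44 kb from the member's edge, within 1 kb for 822 members (26.2%) and beyond 20 kb for 929 (29.6%). The longer unstimulated list, replicate 2, had a peak within 1 kb of 781 members, and replicate 1 had one within 1 kb of 378. The nearest MGE KCl peak lay a median of 14.5 kb away, with 429 members within 1 kb. The nearest MGE unstimulated peak lay 20.2 kb away, with 225 within 1 kb. Counting all 6 lists that the rule required to be empty, 1009 members (32.1%) had a peak within 1 kb and 583 (18.6%) had none within 20 kb. Isolated members had higher ranks. Median ranks in CTX KCl replicates 1 and 2 were 50.8 and 62.6 for members with no such peak within 20 kb, and 29.4 and 29.3 for members with one within 1 kb.

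The 10 members with the highest lower rank had fold enrichments between 4.52 and 6.87 in the CTX KCl lists. The first was a 1089 bp region at chr11:115733825-115734913, 25.2 kb above the upper end of Grb2, which encodes an adaptor between receptor tyrosine kinases and Ras. Its fold enrichment was 4.84 and 5.57 in CTX KCl replicates 1 and 2, and the nearest peaks of CTX unstimulated replicates 1 and 2 were 24.1 and 23.95 kb away. The second was a 409 bp region inside Zc3h6 (chr2:129006316-129006724), with 4.98 and 5.40, and the nearest unstimulated CTX peaks were 38.3 and 38.1 kb away. The third touched Spata7, a gene of photoreceptor cilia (chr12:98668001-98668544), within 2 kb of a gene end, with 4.70 and 5.61. All 10 were more than 20 kb from any CTX unstimulated peak, but MGE peaks stood nearer to the Hpse2 region (3.19 kb, unstimulated), the Grb2 region (6.21 kb, KCl) and the Col19a1 region (15.1 kb, KCl).

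The other 7 were scattered over genes of varied roles. A region inside Lyst, a regulator of lysosomal traffic, had 4.64 and 5.48, and a region 84.0 kb below Abi3bp, an extracellular matrix gene, had 4.63 and 5.19. A region 1332 kb from Amy2b, too far to be assigned to a gene here, had 4.62 and 5.44. A region 300 kb above Cdh10, which encodes a classical cadherin, had 4.59 and 6.87, and at chr15:19315858-19316415 it lay 153 kb from the nearest CTX unstimulated peak. Regions inside Hpse2 (4.68 and 5.07), 10.4 kb below Nps, which encodes neuropeptide S (4.52 and 6.04), and inside the collagen gene Col19a1 (5.15 and 4.99) completed the 10. None of the 10 lay at a gene of the 3 activity lists described below. Those lists held few members in all, at 5, 9 and 12 of the 2531 assigned to a gene.

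The 5 longest members were not the most enriched. They lay 40.1 kb below Tmem243 (1825 bp), inside Nf1, a Ras GTPase-activating protein gene (1695 bp), 23.0 kb below Arl14 (1540 bp), 583 kb below Zwint (1513 bp) and inside Spata17 (1505 bp). The longest had fold enrichments of 2.97 and 3.07, and its peaks were 492 bp in CTX KCl replicate 1 and 1825 bp in replicate 2. The Nf1 region had 2.40 and 2.88, and a CTX unstimulated replicate 2 peak stood 1.10 kb away. The Spata17 region stood apart with 4.18 and 4.58, and the nearest CTX unstimulated peak was 137 kb away.

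The 87 members with a −log10 q of at least 5 in both CTX KCl lists were the best supported by the caller. Of these, 7 (8.05%) lay within 2 kb of a gene end, 32 elsewhere in a gene and 48 outside genes. Over all members the same shares were 7.20%, 47.2% and 45.6%. For 35 of the 87 no CTX unstimulated peak lay within 20 kb, and for 25 one lay within 1 kb. Over all members 29.6% had no such peak within 20 kb and 26.2% had one within 1 kb. The highest values in CTX KCl replicate 2, named after they were seen, belonged to a 547 bp region inside Osbp2 (8.49 and 21.5 in replicates 1 and 2) and a 704 bp region inside Mia2 (8.10 and 19.1). By the lower of its values in the 2 lists, an 836 bp region inside Gnpnat1 led (8.89 and 10.3). The Osbp2 region, at a gene for an oxysterol-binding protein, had a CTX unstimulated peak 0.333 kb away, whereas the Mia2 region had none within 13.4 kb. Among the 87, 69 were assigned to a gene. Of these, 5 were at genes of the lists below, namely Scn2a, Elfn1, Nfia, Kcnh7 and Erbb4. The nearest CTX unstimulated peak stood 13.3 kb from the Scn2a member. It stood 0.451, 0.253, 0.416 and 0.35 kb from the Elfn1, Nfia, Kcnh7 and Erbb4 members. The Nfia member had fold enrichments of 2.61 and 2.18. The ion channel, cortical projection neuron, and MGE and GABAergic lists, to which these genes belong, held 34, 19 and 8 of 2531 members. The share of all assigned members at listed genes was not computed. None of the 69 lay at a gene of the 3 activity lists. Those 3 lists held only 5, 9 and 12 of the 2531 members assigned to a gene, so their absence among 69 says little.

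Each member was assigned to the nearest protein-coding gene up to 100 kb away. This placed 2531 members (80.6%) at 1805 genes, which is 8.34% of the 21631 genes, and left 609 members (19.4%) without a gene. Of the genes, 1342 had 1 member, 463 had 2 or more and 27 had 5 or more. Long genes take more regions of any kind. Genes up to 20 kb long had a member in 2.89% of cases, those of 20 to 100 kb in 8.27%, those of 100 to 300 kb in 29.0% and those over 300 kb in 54.0%. The share of members among the regions called in both CTX KCl lists also differed with gene length, at 4.74%, 6.74%, 9.78% and 12.4% in the same order. Over all protein-coding genes that share was 7.85%, and it is the value beside which the lists are read below.

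Nav3, a neuron navigator gene of 774 kb, had the most members. It had 12, out of 86 merged regions and 35 called in both CTX KCl lists. They were 281 to 1227 bp long, and the one of highest rank (chr10:109994284-109994786) had fold enrichments of 3.66 and 4.87. Ppfia2, which encodes the presynaptic scaffold liprin-alpha2, had 9 members among 19 regions called in both CTX KCl lists. Its highest-ranked member (chr10:106567661-106567908, 248 bp) had 3.82 and 3.80, and the nearest CTX unstimulated peaks were 41.5 kb away in both replicates. Dlg2, the gene of the postsynaptic scaffold PSD-93, had 9 of 56, and Opcml, a cell adhesion gene, had 8 of 28. Magi2, another synaptic scaffold gene, had 8 of 25, and its highest-ranked member had 3.53 and 4.50. All 5 genes span more than 300 kb, and over all genes of that length 12.4% of the regions in both CTX KCl lists were members. The 5 were chosen for their number of members, so their counts are a description. Members of 1 gene are not independent replicates, and 457 members (14.6%) stood in 224 runs within 10 kb of one another, of at most 3 members each.

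Of 30 immediate early genes, 4 had a member (13.3%), against 8.34% of all genes and 2.89% of genes up to 20 kb. Members were 5 of 97 regions in both CTX KCl lists (5.15%), against 7.85% for all genes and 4.74% for those up to 20 kb. The median gene of this list spans 6.38 kb. Regions gained in both cultures lay at 8 of these 30 genes, against 2.32% of all genes, and regions gained in MGE alone at 1, against 5.74% of all genes. The highest-ranked was a 687 bp region at chr10:67492456-67493142, 41.3 kb below Egr2, which encodes an inducible zinc finger factor. Its fold enrichment was 3.31 and 3.57 in CTX KCl replicates 1 and 2, and the nearest CTX unstimulated peaks were 55.1 and 10.1 kb away. Ier5, an immediate early response gene, had a member 79.7 kb below it with 3.10 and 3.50. Sik1, a salt-inducible kinase gene, and Per1, a clock gene, had the others, and Egr2 had another one at its gene end (named, with Sik1 and Per1, after the values were seen). The Sik1 member had 2.97 and 2.84, with peaks of CTX unstimulated replicates 1 and 2 at 0.901 and 0.943 kb. Per1's member had 1.86 and 1.58, a lower rank of 0.147 and an MGE unstimulated peak at 0.706 kb. The Egr2 gene-end member had 2.56 and 2.52. It stood 0.656 kb from a CTX unstimulated replicate 2 peak and 0.611 kb from an MGE KCl peak.

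Late activity-regulated genes had a member in 7 of 29 cases (24.1%), against 8.34% of all genes. Their median gene took 8 merged regions, against 1 for all genes. Of their 84 regions in both CTX KCl lists, 9 were members (10.7%). Pim1, a serine/threonine kinase gene, had one 6.09 kb above its upper end (chr17:29502198-29502818) with 3.45 and 3.54. Sorcs3, a sorting receptor gene, had 2, with 3.02 and 3.79 for the higher-ranked one. That one stood 0.171 kb from a CTX unstimulated replicate 2 peak. Bdnf, named after its values were seen, had 1 member of 985 bp (chr2:109742689-109743673), 15.6 kb above its upper end, with 2.76 and 3.46. The nearest CTX unstimulated peak lay 48.9 kb away, and the lower of its ranks was 16.9.

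Feedback regulators of MAPK and cAMP signalling had a member in 8 of 20 genes (40%), against 8.34% of all genes. Their median gene took 10 merged regions, against 1 for all genes. Of their 133 regions called in both CTX KCl lists, 12 were members (9.02%). Pde1a, a calcium-dependent phosphodiesterase, had a 661 bp member inside the gene with 3.30 and 4.14, and a second one with 3.09 and 3.46. The Pde1a members differed in their surroundings. The first had a CTX unstimulated replicate 2 peak at 0.870 kb, and the second had an MGE KCl peak at 0.02 kb. Dusp5, an ERK phosphatase gene, had a member 26.3 kb above its upper end with 3.67 and 3.52. Pde4b, a cAMP phosphodiesterase gene, had a member with 3.99 and 3.44, which stood 0.245 kb from a CTX unstimulated replicate 2 peak. Rgs4 and Rgs2, regulators of G protein signalling, and Spry2, an inhibitor of receptor tyrosine kinase signalling, also had members, the highest-ranked of each with a lower rank between 23.7 and 40.7.

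Cortical projection neuron genes had a member in 10 of 30 cases (33.3%), and 19 of 210 regions in both CTX KCl lists were members (9.05%). Over all genes, 8.34% had a member. Regions gained in both cultures lay at 2 of these genes (6.67%, against 2.32% of all genes). Regions gained in MGE alone also lay at 2 (6.67%, against 5.74% of all genes). The median gene of this list took 18 merged regions, against 1 for all genes. Sox5, a factor of corticofugal neurons and a gene of 954 kb, had 5 members, of which the highest-ranked had 3.25 and 3.41. Foxp1 had 3, with 3.12 and 3.93 for the highest-ranked. The nearest CTX unstimulated replicate 2 peak stood 0.395 kb from that Foxp1 member and 7.27 kb from the highest-ranked Sox5 member. Nfib, a nuclear factor I gene, had 1 with 3.33 and 3.52, and Tle4, a corepressor gene of corticothalamic neurons, had 1 with 3.13 and 3.00. Median lower rank was 19.8 for the 19 members of this list, 16.6 for the 5 at immediate early genes, 19.8 for the 9 at late activity-regulated genes and 24.7 for the 12 at feedback regulators, against 30.1 for all members.

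Ion channel, postsynaptic and presynaptic genes took the most members of any list. Ion channel genes had a member in 20 of 30 cases, and 34 of 224 regions in both CTX KCl lists were members (15.2%). The highest-ranked lay inside Scn2a, a voltage-gated sodium channel gene (chr2:65635373-65635870), with 4.04 and 5.12, and the nearest CTX unstimulated peak was 13.3 kb away. Potassium channel genes followed, with 3.75 and 3.99 inside Kcnh7, 3.65 and 4.21 inside Kcnj3, and 3.43 and 3.99 inside Kcnma1. The nearest CTX unstimulated replicate 2 peak stood 0.416 kb from the Kcnh7 region, 33.3 kb from the Kcnj3 region and 0.289 kb from the Kcnma1 region. Presynaptic and adhesion genes had a member in 17 of 29 cases and 37 of 253 regions (14.6%), led by the axon guidance receptor gene Robo1 (3.82 and 4.28), Cadm2 (4.02 and 4.11) and Cntnap2 (3.73 and 4.0). Postsynaptic genes had a member in 12 of 30 cases and 30 of 266 regions (11.3%), led by the scaffold gene Dlgap1 (3.64 and 4.02) and the kainate receptor gene Grik2 (4.19 and 3.91). The median genes of these lists spanned 301, 291 and 244 kb, against 17.3 kb for all genes. Regions gained in MGE alone also lay at 11, 14 and 12 of the genes of these lists, in the same order, and regions gained in both cultures at 4, 4 and 7. Over all genes, 8.34% had a member, 5.74% a region gained in MGE alone and 2.32% a region gained in both. Genes of 100 to 300 kb had 9.78% of members among such regions and genes over 300 kb had 12.4%, and the part of gene length in the share of these lists was not tested.

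Lists of other cell types held 0 to 8 members each, from few regions, and their shares lay on both sides of the 7.85% of all genes. MGE and GABAergic genes had a member in 6 of 24 cases and 8 of 98 regions (8.16%), the highest-ranked 48.4 kb above Erbb4, which encodes a neuregulin receptor (4.13 and 3.97). That member stood 0.417 and 0.35 kb from peaks of CTX unstimulated replicates 1 and 2, and 0.363 kb from an MGE KCl peak. CGE, LGE and striatal genes had a member in 3 of 20 cases and 3 of 53 regions (5.66%). Neural progenitor genes had one in 4 of 14 cases and 5 of 59 regions (8.47%), among them Sox1 and Sox2. Astrocyte genes had 2 members of 41 regions (4.88%), both inside Slc1a3, a glutamate transporter gene. Oligodendrocyte lineage genes had 0 of 41 and housekeeping genes 0 of 29. Microglia genes had 1 of 11, near Sall1, and endothelial and mural genes 2 of 10 (20%), both below Rgs5.

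**Figure D3:**
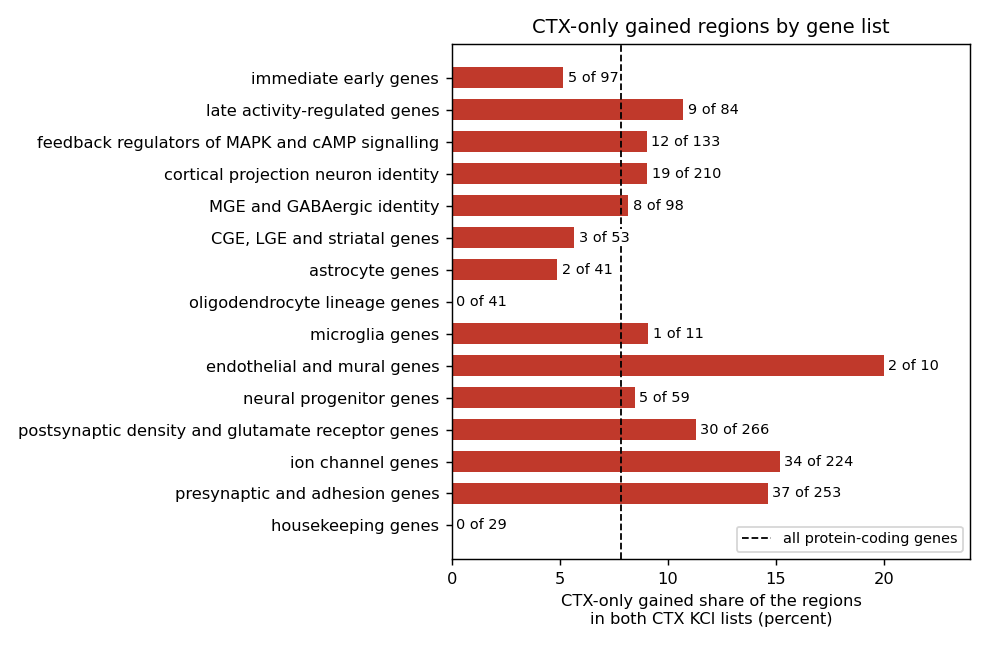
Percent of the regions called in both CTX KCl lists that were CTX-only gained (x axis), for each gene list (y axis), with the number of members and of regions beside each bar. The dashed line is the 7.85% of all protein-coding genes, and 10 of the 15 lists lie to its right. Endothelial and mural genes have the highest share (20%, of 10 regions), followed by ion channel genes (15.2%), presynaptic and adhesion genes (14.6%), postsynaptic genes (11.3%) and late activity-regulated genes (10.7%).

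Peaks beside the members, in regions that are not members themselves, did not choose the members. The rule still touches them, since a peak of an unstimulated or MGE list could not reach from the flank into a member, so the values near a member are a description. In the 10 kb on either side of the 20 members named at activity and cortical projection neuron genes, a peak outside all members was called beside 5 and 15 of the 20 in CTX KCl replicates 1 and 2, and beside 2 and 9 in CTX unstimulated replicates 1 and 2. MGE KCl replicates 1 and 2 had one beside 1 and 7, and MGE unstimulated replicates 1 and 2 beside 1 and 0. Summed called length there was 2.72 and 8.75 kb in CTX KCl, 1.69 and 5.28 kb in CTX unstimulated, 0.337 and 3.18 kb in MGE KCl, and 0.294 and 0.00 kb in MGE unstimulated. CTX unstimulated replicate 2 exceeded CTX KCl replicate 1, so the groups overlapped, and the long replicate 2 lists of CTX had the most called length.

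**Figure D4:**
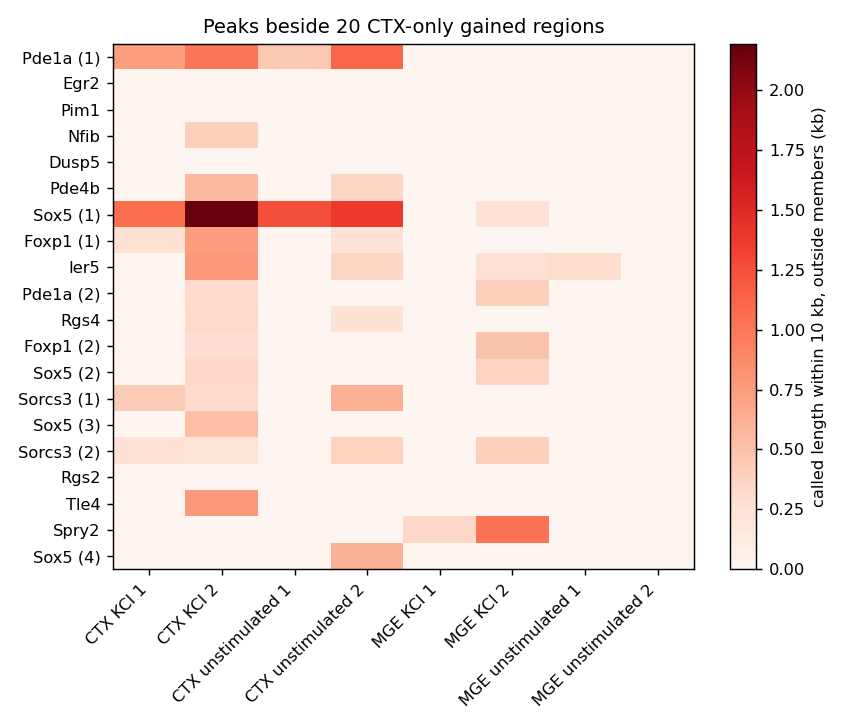
Called length in the 10 kb on either side of each of the 20 named members, outside all members, one row per member and one column per library, with darker red for more kb called. CTX KCl replicate 2 has called flanks at 15 of 20 members and MGE unstimulated replicate 2 at 0.

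Over all members, the share of a list's called bases that lay within 50 kb of a member, outside members, was 14.9% and 16.3% in CTX KCl replicates 1 and 2 (15.6% ± 1.04, SD, n = 2). It was 14.7% and 15.1% in CTX unstimulated (14.9% ± 0.250, SD, n = 2), 13.8% and 14% in MGE KCl (13.9% ± 0.134, SD, n = 2), and 13.4% and 13.3% in MGE unstimulated (13.3% ± 0.0436, SD, n = 2). The groups overlapped in CTX and did not overlap in MGE. KCl minus unstimulated was 0.680 percentage points in CTX (exact two-sided permutation test, p = 0.667) and 0.556 in MGE (exact p = 0.333, the smallest that 2 against 2 libraries allow). Over both cultures the mean difference was 0.618 points (exact permutation within culture over 36 arrangements, p = 0.111, smallest possible 0.0556). The CTX difference exceeded the MGE difference by 0.124 points (exact permutation p = 0.944). With 2 libraries a group the smallest p-values these permutation tests allow are 0.333 within a culture and 0.0556 over both. These tests could not decide whether flanks differed with KCl, or whether cultures differed in that, so no conclusion is drawn from them. The 50 kb also hold the stretch next to a member, which the rule touches. Without CTX KCl replicate 2 the CTX difference was -0.0528 points, so its sign rested on that library. With the 2 kb next to a member left out, an alternative chosen after seeing the data, the CTX difference was 0.0907 points (exact permutation p = 1.0), and over both cultures it was 0.218 points (exact permutation p = 0.389).

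Around the 638 regions gained in both cultures, the base share was lower, at 4.20% and 4.23% for CTX cultures with KCl, against 3.6% and 3.56% for those left unstimulated. MGE lists had 4.70% and 4.56% with KCl, against 3.95% and 4.06% without. There the KCl and unstimulated lists did not overlap in either culture. The difference over both cultures was 0.626 points (exact permutation p = 0.0556, the smallest possible), on a base smaller than that around the CTX-only gained regions. Around regions gained in MGE alone the difference was 0.498 points (exact permutation p = 0.111). The differences between these classes were not tested. The rules for regions gained in both cultures or in MGE alone also barred unstimulated peaks from reaching into them. Flanks without the nearest 2 kb were not computed for them, so no conclusion is drawn from their p-values.

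**Figure D5:**
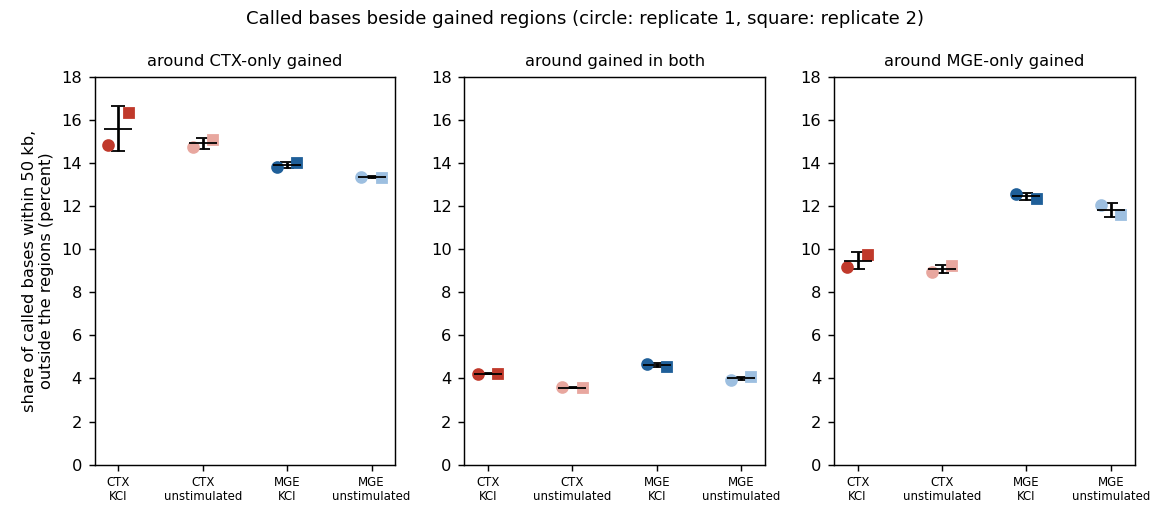
Percent of each list's called bases within 50 kb of a region, outside such regions (y axis), by group (x axis), in a panel each for CTX-only gained regions, regions gained in both cultures and MGE-only gained regions, with 1 point per library, the mean as a line and the SD as a bar. Around CTX-only gained regions, CTX KCl libraries are at 14.9% and 16.3% and CTX unstimulated libraries at 14.7% and 15.1%, and both MGE groups lie between 13.3% and 14%.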

How the data were processed

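H3K27ac ChIP-seq used the antibody ab4729 on formaldehyde-fixed neurons, per the labels' protocols. The submitters' processing notes name mm10 as the build, and as tools MACS3 3.0.0a7, deepTools 3.4.3, cutadapt 1.18 and Bowtie2 2.3.3. Their settings, any input control and the handling of duplicates are not given in the sources used. The authors deposited 1 broad-peak list per library, with peak names that carry the word unfiltered. Each peak has a deposited fold enrichment, a linear ratio over background by the caller. It also has deposited −log10 p and −log10 q values, and a deposited score that was not used. No list holds read counts, so depth is unknown.

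With Python 3.11.15, pandas 2.3.3 and numpy 2.4.6, peaks that overlapped by at least 1 bp were merged, and 29 peaks on other chromosomes were left out. Ranks were percentiles of fold enrichment within a list. Each region went to the nearest protein-coding gene span within 100 kb, or the shorter gene where spans overlapped. All 8 libraries were used, and groups came from the titles. The members, gene lists and tests were chosen with earlier results of these data known. Most genes were named by a fixed rule. It took the 10 members of highest lower rank, the 5 longest and members of the 5 genes with most members. It also took up to 20 members (of 45) at activity or cortical projection neuron genes by rank, and up to 4 examples for other lists. The promoters, and some members of high −log10 q or at activity genes, were named after their values were seen. The merging, the rule for members and the assignment to genes were tested on simulated data, and the other steps were not. Exact permutation tests relabelled libraries within a culture.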

Additional observations from a re-analysis of the deposited data

How the results depend on the processing

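The 3140 members, their median length of 509 bp, their 7.20% within 2 kb of a gene end and the 19 activity-list genes with a member depended on how lists were thresholded. With a −log10 q of at least 5 in all lists 767 regions met the rule, mostly other regions (they overlapped 87 of the 3140). Their median was 700 bp, with 24.5% near gene ends and 11 activity genes. Asking it of the CTX KCl lists alone left 87 members at 0 activity genes, with 69 of the 87 assigned to any gene. With equal numbers of peaks per list there were 1989 members (955 overlapped a member above), of 582 bp, 9.70% and 12 genes. With equal called bases there were 715 (212 overlapped), of 593 bp, 13.7% and 5 genes. With no other peak allowed within 1 kb the gene-end share was 5.68%, and with absence meaning under 50% of the region covered it was 9.13%. Assigning genes within 50 kb gave 18 activity genes, and gene bodies with 20 kb on either side gave 15. Leaving out each library in turn gave 3181 to 14716 members, 324 to 548 bp, 6.74 to 8.93% and 19 to 43 genes. The flank difference for CTX alone ran from -0.0528 to 1.41 points when 1 library was left out. The difference over both cultures was 0.478 points for a 20 kb window and 0.553 for 100 kb (exact permutation p = 0.111 and 0.222). With the nearest 2 kb skipped it was 0.218 points (exact permutation p = 0.389), and 0.0907 for CTX alone.

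Replicate numbers are shared by all groups, but no label says that a number pairs libraries. With the replicate number as a block, the flank difference over both cultures was 0.618 points (exact test over pairs, p = 0.125, the smallest possible), from pairs of 0.124 and 1.24 in CTX and 0.430 and 0.682 in MGE.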
